A study of Mus musculus with 18 samples.

Results

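The genes followed here are those whose RNA was scarce in donor-derived macrophages of the leptomeninges and abundant in donor-derived microglia of the same origin: Npnt, Sparc, Serpine2, Cd34, Adgrg1, Tmem52, Sox4, Cdk5r1, Capn3 and Whrn. They are 10 of the 13043 genes in the count table, and all 10 were among the 10597 genes that passed the low-count filter. The 10 were picked as the lowest genes in leptomeningeal macrophages against microglia of the same origin, so that difference defines them and is given here as a description, without a test. No library analysed here held donor cells before they entered the brain, so the values compare sites at 1 time, and a rise on entry was not measured.

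Microglia are the resident macrophages of the brain parenchyma, and macrophages of the leptomeninges line its surface. Resident microglia descend from yolk sac precursors and normally receive no input from bone marrow, but irradiation and transplantation allow marrow-derived cells to settle in the parenchyma, where local signals such as TGF-beta shape the expression of a macrophage. Marrow-derived cells in the parenchyma are known to take on part of the microglial expression programme and to lack other parts of it, the transcription factor Sall1 among them.

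The libraries came from wild type C57BL6/C mice that were lethally irradiated and given marrow from Ms4a3-Cre: R26-TdTomato: Cx3cr1-gfp donors, and the cells were sorted 32 weeks later. Ms4a3-Cre marks descendants of granulocyte-monocyte progenitors with TdTomato, and Cx3cr1-gfp marks monocytes and macrophages with GFP. The 5 groups were leptomeningeal macrophages of monocyte origin (GFP+ and TdTomato+, n = 4), leptomeningeal macrophages that the labels call HSC-derived (GFP+ only, n = 2), microglia of monocyte origin (n = 4), HSC-derived microglia (n = 4) and host microglia, which carried no colour (n = 4). HSC stands for haematopoietic stem cell, and an HSC-derived cell is defined here only by GFP without TdTomato. All 5 groups shared irradiation and transplantation, no unirradiated brain was analysed here, and all donor cells, unlike host cells, carried a gfp allele of Cx3cr1. Leptomeningeal cells were rinsed from the brain surface after a collagenase step, and the remaining brain was digested further and cleaned on Percoll before microglia were sorted, so site and isolation step cannot be told apart. At most 100000 cells entered a library, actinomycin D was present throughout, and poly(A) RNA was sequenced by MARS-seq, which counts unique molecules at transcript 3′ ends. The labels do not say that replicates were separate mice, so p-values measure only the spread between these samples.

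Total counts ran from 154727 to 2440234 per library. HSC-derived microglia replicates 3 and 4 and HSC-derived leptomeningeal replicate 2 were the shallowest, with 264795, 317872 and 154727 counts, and 3 counts, the most that a count of 0 allows, amounted to between 1.05 and 23.1 CPM (counts scaled to a library of 1e6) across all libraries. The sum of 30 homeostatic microglia genes was 22895 to 25573 CPM in monocyte-derived and 21905 to 22097 CPM in HSC-derived leptomeningeal macrophages, 42842 to 45597 CPM in monocyte-derived microglia, 48593 to 71989.6 CPM in HSC-derived microglia and 74096 to 96324 CPM in host microglia. By this sum the microglia labels stood above the leptomeningeal ones in every library. Its most abundant gene in each group was Cst3. Cst3 averaged 13615 and 13210 CPM in monocyte-derived and HSC-derived leptomeningeal macrophages. In microglia of these origins Cst3 averaged 20875 and 34806 CPM, and in host microglia 44152 CPM. Leptomeningeal libraries also held more RNA of other cells: neutrophil markers summed to 1222 to 2874 CPM in monocyte-derived and 100.1 to 280.0 CPM in HSC-derived leptomeningeal macrophages, against 11.5 to 55.1 CPM and 0 to 20.5 CPM in microglia of the same origins, and fibroblast and mural markers, mostly Ptgds, to 2142 to 3336 CPM and 3298 to 9319.8 CPM, against 27.3 to 43.9 CPM and 74.2 to 630.2 CPM. Their part in the difference between sites was not tested. HSC-derived microglia replicates 3 and 4 also stood apart in content. Apoe was at 250900 and 205660 CPM in them, against 111620 and 87333 CPM in replicates 1 and 2, fibroblast and mural markers summed to 630.2 and 524.5 CPM, against 87.8 and 74.2 CPM, and oligodendrocyte markers to 276.7 and 328.8 CPM, against 93.5 and 114.1 CPM. In bulk libraries, fewer cells that make an RNA and less of it per cell cannot be told apart.

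The 10 genes lie on 7 chromosomes in mm10 (GENCODE vM21): Npnt at chr3:132881745-132950291, Sparc at chr11:55394500-55423183, Sox4 at chr13:28948919-28953713, Cdk5r1 at chr11:80477023-80481184, Cd34 at chr1:194938819-194961279, Serpine2 at chr1:79794197-79861180, Adgrg1 at chr8:94974751-95014217, Capn3 at chr2:120456019-120504913, Tmem52 at chr4:155469114-155470858 and Whrn at chr4:63414910-63495991. All are protein-coding genes. Annotated antisense RNAs cover the last kilobase of Sox4 (Gm26735) and of Cd34 (Gm16897), where 3′ reads fall, and since no source used here gives the strand setting of the counting, reads of a gene and its antisense partner cannot be told apart.

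Promoter sequence is shown for 5 of the genes because genes that were alike between sites differed against host microglia: in monocyte-derived microglia Npnt and Sox4 were higher than in host, Sparc and Adgrg1 lower, and Capn3 did not pass the test. Each line gives the 250 bases before a RefSeq start in GRCm38.p6, 5′ to 3′ in the direction of transcription. The windows are chr3:132950292-132950541 on the minus strand for Npnt, chr13:28953700-28953949 on the minus strand for Sox4, chr11:55420081-55420330 on the minus strand for Sparc, chr8:94984149-94984398 on the plus strand for Adgrg1 and chr2:120463343-120463592 on the plus strand for Capn3. Capitals mark a match, on either strand, to any of 6 motifs: PU.1 (GAGGAAGT), AP-1 (TGANTCA), SMAD (GTCTAGAC), RUNX (TGTGGTT), Sp1 (GGGCGG) and MEF2.
Npnt: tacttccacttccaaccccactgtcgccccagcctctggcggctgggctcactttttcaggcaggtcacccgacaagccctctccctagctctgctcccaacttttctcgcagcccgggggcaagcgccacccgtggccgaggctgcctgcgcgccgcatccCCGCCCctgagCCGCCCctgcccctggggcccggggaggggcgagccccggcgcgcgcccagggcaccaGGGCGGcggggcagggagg
Sox4: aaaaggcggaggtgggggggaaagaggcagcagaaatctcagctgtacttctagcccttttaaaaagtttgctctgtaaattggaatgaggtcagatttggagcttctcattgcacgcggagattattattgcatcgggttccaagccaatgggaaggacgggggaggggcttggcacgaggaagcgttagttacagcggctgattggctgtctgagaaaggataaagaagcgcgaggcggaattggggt
Sparc: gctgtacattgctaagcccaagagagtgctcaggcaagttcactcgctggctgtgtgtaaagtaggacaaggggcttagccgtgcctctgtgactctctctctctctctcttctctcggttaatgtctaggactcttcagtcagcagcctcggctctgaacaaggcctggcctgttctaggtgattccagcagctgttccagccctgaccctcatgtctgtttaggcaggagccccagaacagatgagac
Adgrg1: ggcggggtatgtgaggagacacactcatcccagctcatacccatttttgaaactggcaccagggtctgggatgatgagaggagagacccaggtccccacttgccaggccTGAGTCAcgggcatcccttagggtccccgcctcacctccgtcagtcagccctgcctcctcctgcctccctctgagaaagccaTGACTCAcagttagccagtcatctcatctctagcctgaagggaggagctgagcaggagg
Capn3: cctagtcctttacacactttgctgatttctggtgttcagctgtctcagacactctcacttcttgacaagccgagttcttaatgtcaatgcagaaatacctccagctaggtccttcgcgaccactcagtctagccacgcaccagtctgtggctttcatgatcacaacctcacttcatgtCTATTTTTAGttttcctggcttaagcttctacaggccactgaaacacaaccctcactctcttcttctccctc

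RefSeq gave 11 such windows for 8 of the 10 genes, all but Tmem52 and Cdk5r1. Npnt, Adgrg1 and Capn3 each had a further window, not shown, that held no match to any of the motifs. The Sp1 motif, found in 32.7% of 32851 mouse windows of this length, was in 3 of the 11, those of Npnt, Serpine2 and Whrn, with neighbouring matches sharing bases in Serpine2. The AP-1 motif (6.75% of all windows) was in 1, an Adgrg1 window with matches whose first bases lie at positions -141 and -59 from the start. The MEF2 motif (2.92%) was in 1, the Capn3 window shown. The PU.1, SMAD and RUNX motifs, in 2.44%, 0.167% and 4.4% of all windows, were in 0 of the 11. No motif was shared by all members with a window, and a match is only a run of letters.

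Against host microglia the 10 genes did not move together. In monocyte-derived microglia Tmem52, Npnt and Sox4 were higher than in host microglia, Sparc, Cd34, Adgrg1 and Serpine2 were lower, and Cdk5r1, Capn3 and Whrn did not pass the test. That is 7 of 10 genes called at an adjusted p under 0.05, against 30.2% of all tested genes, with 15.1% of all genes higher and 15.1% lower. In HSC-derived microglia 7 of 10 were called as well, 2 higher (Tmem52 and Npnt) and 5 lower (Sparc, Cd34, Adgrg1, Serpine2 and Cdk5r1), against 29.4% of all genes, 16.3% higher and 13.1% lower. The median log2 change of the 10 was -0.08 and -0.53, beside 0.01 and 0.00 over all tested genes. Both comparisons use the same 4 host libraries, and the donor-derived microglia entered the choice of the genes, which favours high values there; the host libraries did not enter it. The plot of levels by library shows these 3 patterns.

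**Figure D1:**
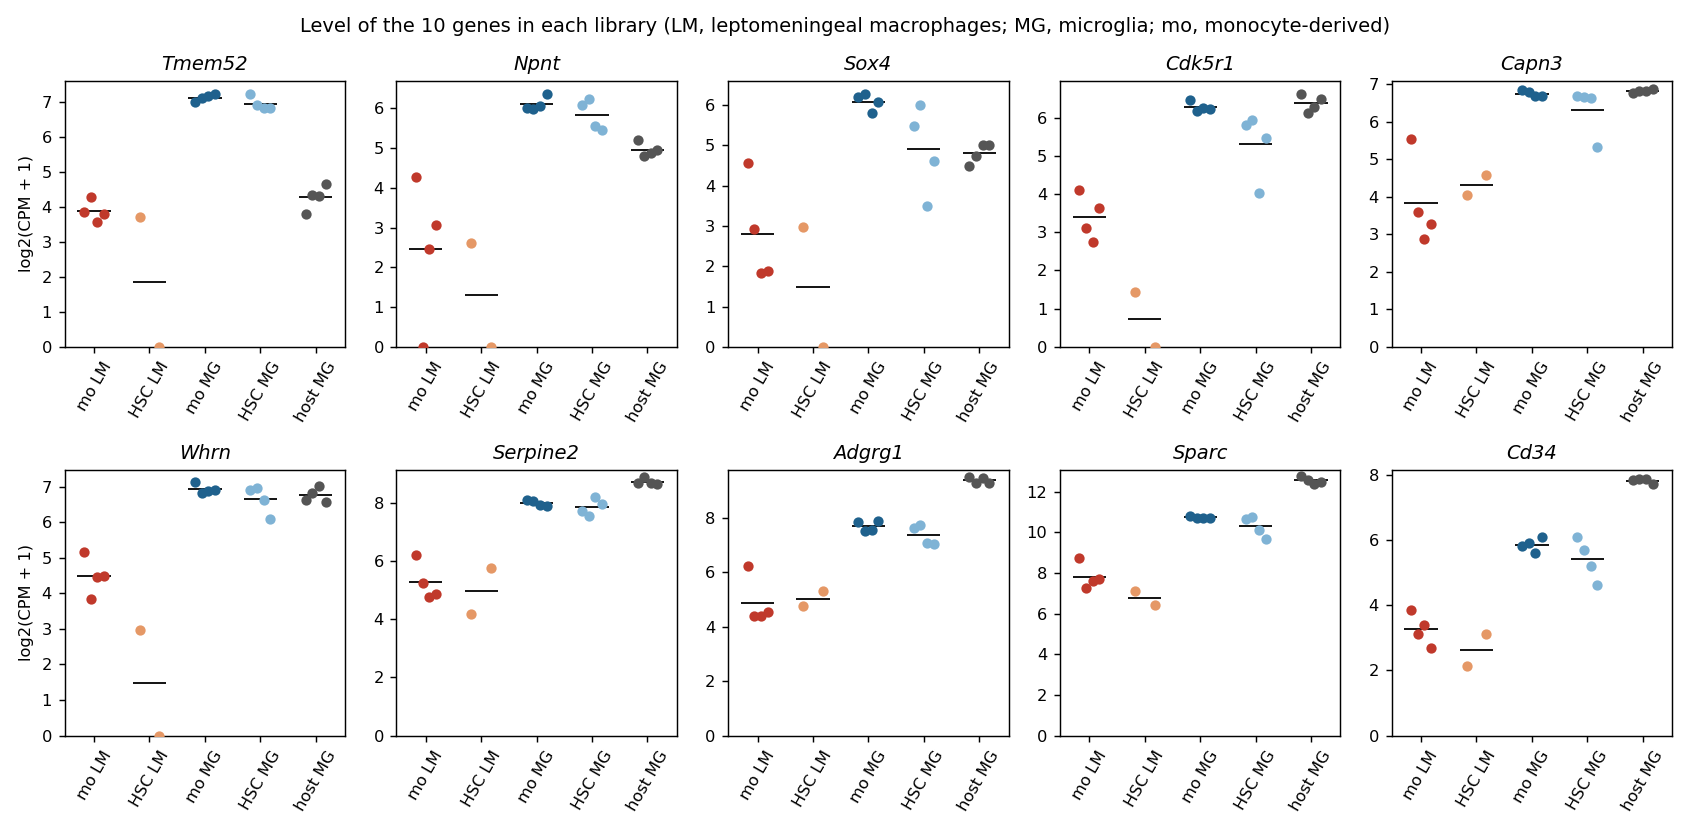
Level of each gene in every library as log2(CPM + 1), with points for libraries and a bar for the group mean on that scale, from left to right monocyte-derived (mo) and HSC-derived leptomeningeal macrophages (LM), then monocyte-derived, HSC-derived and host microglia (MG). Tmem52 in host microglia (12.9 to 24.1 CPM) sits near the leptomeningeal libraries, Whrn in host microglia (93.8 to 128.1 CPM) near the donor-derived microglia, and Cd34 in host microglia (209.0 to 233.8 CPM) above all other libraries.

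Of the 3 genes for secreted proteins, Sparc encodes a collagen-binding matrix glycoprotein, also called osteonectin, that resting microglia are known to make. Sparc was at 1809, 1682, 1653 and 1650.5 CPM in monocyte-derived microglia and at 1629.5, 1703, 1112 and 818.0 CPM in HSC-derived microglia, against 6937, 6141, 5364 and 5694 CPM in host microglia. Neither donor group overlapped host microglia, and both shallow HSC-derived libraries, replicates 3 and 4, were the lowest of the 12. Sparc was lower than in host microglia by edgeR's quasi-likelihood test in monocyte-derived microglia (log2 change -1.83 ± 0.25 SE, adjusted p = 1.68e-06) and in HSC-derived microglia (-2.19 ± 0.25, adjusted p = 1.67e-07). Its mean in monocyte-derived microglia was 28.1% of the host mean, and its mean in monocyte-derived leptomeningeal macrophages, 244.6 ± 125.0 CPM (SD, n = 4), was 4.05% of it.

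Serpine2, or protease nexin-1, is a secreted inhibitor of thrombin, urokinase and plasmin. Its levels were 273.2, 267.3, 241.7 and 237.8 CPM in monocyte-derived microglia and 211.1, 185.5, 297.2 and 250.5 CPM in HSC-derived microglia, against 408.7, 482.0, 412.5 and 405.8 CPM in host microglia. No donor library reached the lowest host library. The fall was the smallest of the 4 genes that lay below host in both donor groups, with log2 changes of -0.74 ± 0.20 SE in monocyte-derived microglia (edgeR adjusted p = 0.00668) and -0.90 ± 0.22 in HSC-derived microglia (edgeR adjusted p = 0.00295).

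Npnt encodes nephronectin, a matrix protein known from kidney development as a ligand of integrin alpha 8 beta 1. It was at 63.4, 62.1, 65.2 and 81.4 CPM in monocyte-derived microglia and at 66.6, 74.2, 46.1 and 43.1 CPM in HSC-derived microglia, against 35.8, 26.8, 28.4 and 30.1 CPM in host microglia. All 8 donor libraries lay above all 4 host libraries, the opposite order to Sparc and Serpine2. The log2 change was 1.18 ± 0.25 SE in monocyte-derived microglia (edgeR adjusted p = 0.000796) and 1.06 ± 0.30 in HSC-derived microglia (edgeR adjusted p = 0.0103). The call in HSC-derived microglia was lost without HSC-derived microglia replicate 2 (0.91, adjusted p = 0.0674; over its alternatives adjusted p ranged between 2.12e-05 and 0.0674).

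The membrane proteins split in the same way. Cd34, the sialomucin of blood progenitors and endothelium that mouse microglia are also known to carry, was at 55.9, 59.6, 47.6 and 67.8 CPM in monocyte-derived microglia and at 68.0, 50.8, 35.9 and 23.5 CPM in HSC-derived microglia, against 229.8, 231.9, 233.8 and 209.0 CPM in host microglia. The highest donor library was below the lowest host library. Cd34 had the largest fall of the 10 genes in monocyte-derived microglia, with a log2 change of -1.97 ± 0.16 SE (edgeR adjusted p = 5.53e-12), and fell by 2.17 on the log2 scale in HSC-derived microglia (SE 0.20, edgeR adjusted p = 8.05e-11). The endothelial marker Cldn5 was at 0 in all host libraries and at most 5.12 CPM in any library, while Pecam1 was at 1.66 to 3.19 CPM in monocyte-derived microglia and 0 to 5.12 CPM in HSC-derived microglia, against 10.7 to 20.0 CPM in host microglia. Egfl7, on the same endothelial list, went the other way. It averaged 8.95 CPM in monocyte-derived and 14.6 CPM in HSC-derived microglia, against 0.38 CPM in host microglia. The 10 endothelial markers in the table, mostly Bsg, summed to 382.7 to 413.8 CPM in monocyte-derived and 381.2 to 599.5 CPM in HSC-derived microglia, against 480.6 to 527.6 CPM in host microglia, and their part in the Cd34 difference was not tested.

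Adgrg1, also called GPR56, is an adhesion G protein-coupled receptor that binds collagen III and, on microglia, phosphatidylserine exposed at synapses. It was at 227.1, 182.1, 185.7 and 231.4 CPM in monocyte-derived microglia and at 198.4, 213.0, 133.2 and 129.2 CPM in HSC-derived microglia, against 725.9, 618.4, 696.9 and 623.5 CPM in host microglia. The groups did not overlap, and donor-derived means were 31.0% and 25.3% of the host mean. The log2 change was -1.69 ± 0.27 SE in monocyte-derived microglia (edgeR adjusted p = 0.000144) and -1.92 ± 0.30 in HSC-derived microglia (edgeR adjusted p = 0.000105).

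Tmem52, which encodes a transmembrane protein, showed the largest rise. It was at 126.8, 137.4, 142.9 and 148.4 CPM in monocyte-derived microglia and at 150.2, 119.6, 112.7 and 113.5 CPM in HSC-derived microglia, against 12.9, 19.1, 19.0 and 24.1 CPM in host microglia. Its levels in leptomeningeal macrophages were 13.3, 18.7, 10.8 and 12.8 CPM in the monocyte-derived group and 12.02 and 0 CPM in the HSC-derived group. Of the 5 groups, then, both kinds of donor-derived microglia held more Tmem52 in every library than any library of the other 3 groups, and host microglia overlapped the leptomeningeal macrophages. The log2 change against host was 2.87 ± 0.17 SE in monocyte-derived microglia (edgeR adjusted p = 1.18e-15) and 2.75 ± 0.19 in HSC-derived microglia (edgeR adjusted p = 1.06e-13), with means at 740.2% and 660.8% of the host mean.

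The remaining 4 genes act inside the cell. Sox4 encodes a SoxC transcription factor known as a target of TGF-beta signalling. It was at 72.1, 77.0, 55.3 and 66.2 CPM in monocyte-derived microglia and at 43.9, 63.2, 10.2 and 23.5 CPM in HSC-derived microglia, against 21.5, 25.5, 31.2 and 31.5 CPM in host microglia. All monocyte-derived libraries lay above host, whereas HSC-derived replicates 1 and 2 lay above and the shallow replicates 3 and 4 within or below the host range. Replicates 3 and 4 held only 2 and 6 counts of Sox4. There 3 counts amount to 15.4 and 11.7 CPM, so the place of these libraries against host is uncertain. Sox4 was higher than host in monocyte-derived microglia (log2 change 1.28 ± 0.34 SE, edgeR adjusted p = 0.00823) and did not pass in HSC-derived microglia (0.64, 95% interval -0.29 to 1.56, edgeR adjusted p = 0.308). Without the 3 shallow libraries and monocyte-derived leptomeningeal replicate 1, an alternative chosen after seeing the data, the value in HSC-derived microglia was 0.95 with an edgeR adjusted p of 0.00096, in a range of 0.00096 to 0.812 over its alternatives.

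Cdk5r1 encodes p35, the activator of the kinase Cdk5, best known in neurons. It was at 87.0, 71.2, 75.0 and 73.4 CPM in monocyte-derived microglia and at 55.3, 60.5, 15.4 and 43.1 CPM in HSC-derived microglia, against 98.1, 68.2, 76.5 and 88.4 CPM in host microglia. Monocyte-derived microglia overlapped host (log2 change -0.09, 95% interval -0.44 to 0.25, edgeR adjusted p = 0.735), and all HSC-derived libraries lay below both other groups. Cdk5r1 was lower in HSC-derived than in host microglia (log2 change -0.72 ± 0.22 SE, edgeR adjusted p = 0.0118), but not past the threshold without the 3 shallow libraries (-0.50, adjusted p = 0.0752; range over its alternatives 0.00648 to 0.0752).

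Capn3 encodes a calcium-dependent cysteine protease best known from skeletal muscle, and Whrn encodes whirlin, a PDZ scaffold protein of hair-cell stereocilia and photoreceptors. Capn3 was at 114.1, 110.9, 101.6 and 101.4 CPM in monocyte-derived microglia and at 102.0, 100.3, 97.4 and 39.1 CPM in HSC-derived microglia, against 108.1, 112.3, 111.3 and 117.2 CPM in host microglia. Whrn was at 137.8, 111.7, 117.0 and 118.1 CPM in monocyte-derived microglia and at 119.0, 123.7, 97.4 and 66.5 CPM in HSC-derived microglia, against 97.4, 112.3, 128.1 and 93.8 CPM in host microglia. The groups overlapped for both genes except Capn3 in HSC-derived against host microglia, where the highest donor library lay just below the lowest host library. No difference passed the test: the log2 change of Capn3 was -0.07 (95% interval -0.74 to 0.61) in monocyte-derived and -0.33 (-1.12 to 0.46) in HSC-derived microglia, and that of Whrn 0.16 (-0.17 to 0.49) and -0.02 (-0.40 to 0.36). The intervals of Capn3 were wider than those of Whrn in both comparisons. The fit estimates the spread of a gene over all 18 libraries, so interval width is not the spread of the compared groups alone. The SD of log2 CPM of Capn3 was 0.0863 in monocyte-derived and 0.0476 in host microglia, against 0.130 and 0.203 for Whrn. It was 0.658 in HSC-derived microglia and 1.14 in monocyte-derived leptomeningeal macrophages, against 0.402 and 0.523. In HSC-derived leptomeningeal macrophages it was 0.377, against 1.66.

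**Figure D2:**
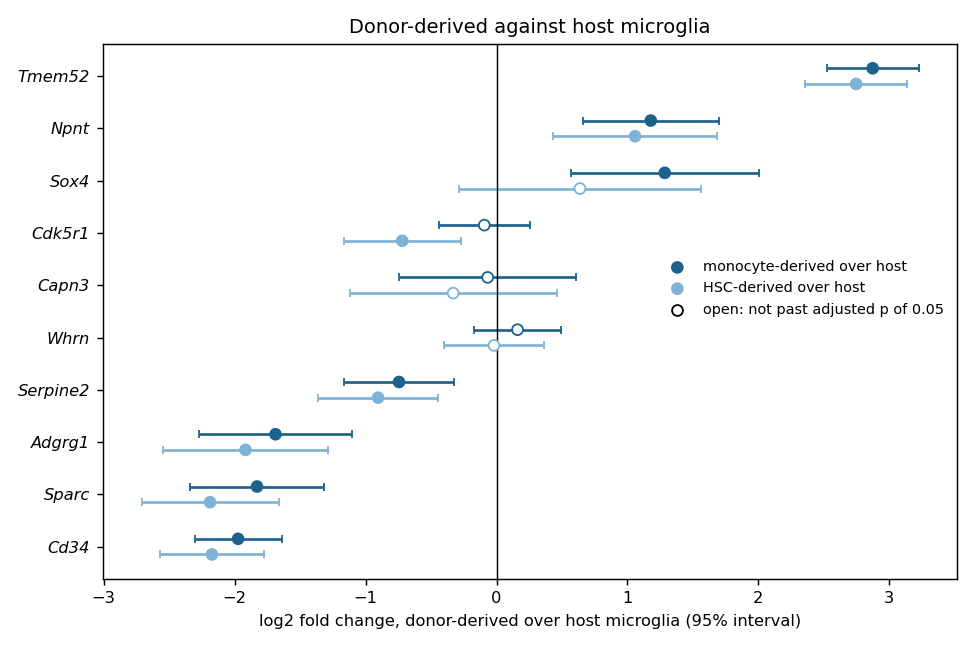
Log2 fold change of each gene in monocyte-derived microglia (dark) and HSC-derived microglia (light) over host microglia, with bars for the 95% interval of edgeR's quasi-likelihood fit and open points for adjusted p values above the threshold. Values run between 2.87 for Tmem52 in monocyte-derived and -2.19 for Sparc in HSC-derived microglia, with 3 genes above 0, 4 below 0 and 3 not past the threshold in monocyte-derived microglia.

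Markers of other cells also differed between donor-derived and host microglia. The 8 choroid plexus markers in the table, mostly Ttr, summed to 6.31 to 162.0 CPM in monocyte-derived and 15.1 to 490.3 CPM in HSC-derived microglia, against 2086 to 3558 CPM in host microglia. The 13 monocyte markers in the table summed to 333.7 to 443.7 CPM in monocyte-derived and 394.5 to 614.9 CPM in HSC-derived microglia, against 87.8 to 124.6 CPM in host microglia. Neutrophil markers summed to 11.5 to 55.1 CPM and 0 to 20.5 CPM in the donor groups, against 0 to 0.670 CPM in host microglia, where 7 of 8 were at 0. Astrocyte markers summed to 38.0 to 43.0 CPM in monocyte-derived and 34.4 to 256.2 CPM in HSC-derived microglia, against 168.2 to 223.7 CPM in host microglia. T and NK cell markers summed to 141.8 to 198.7 CPM and 0 to 208.9 CPM in these donor groups, against 44.4 to 72.3 CPM in host microglia, and dendritic cell markers, which include Bst2 and Siglech, to 2763 to 2897 CPM and 3004 to 4565 CPM, against 2159 to 2459.7 CPM in host microglia. Siglech, also on the homeostatic microglia list, went the other way, at 965 to 1056 CPM and 1122 to 1174 CPM, against 1709 to 1875 CPM in host microglia. The dendritic cell sum is thus no measure of dendritic cells alone. All these sums but the neutrophil, astrocyte and T and NK ones in HSC-derived microglia left a gap between donor and host libraries. The part of these RNAs in the differences from host microglia was not tested.

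In the leptomeninges the measured levels of all 10 genes were lower than in microglia of the same origin in every library, which is what they were picked for. For Sox4 and Cdk5r1 the count of 0 in HSC-derived leptomeningeal replicate 2 allows up to 23.1 CPM. That is above HSC-derived microglia replicate 3, at 10.2 CPM for Sox4 and 15.4 CPM for Cdk5r1. Cd34 and Capn3 had only 1 and 3 counts (7.70 and 23.1 CPM) in the same leptomeningeal library. In HSC-derived microglia replicate 4 they were at 23.5 and 39.1 CPM, so their order is uncertain as well. Monocyte-derived leptomeningeal macrophages differed from monocyte-derived microglia by log2 values of -3.35 (Tmem52) to -2.39 (Whrn), with a median of -2.72 beside -0.04 over all tested genes, in a comparison in which 35.3% of all genes were called and 16.3% were lower. The 10 genes held places 14 to 58 from the lowest of 10597 genes, and places 4 to 19 among the 6321 genes with at least 20 CPM in monocyte-derived microglia. Among those, the other genes at places 1 to 12 were Mir692-1, Gal3st4, Hspa1b, Gm2830 and Zfp532, with values of -4.01 to -2.62. The last members were Capn3 at -2.55 and Whrn at -2.39.

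HSC-derived leptomeningeal macrophages differed from HSC-derived microglia by fitted log2 values of -5.05 (Cdk5r1) to -2.38 (Capn3), with a median of -3.50 beside -0.06 over all tested genes, where 9.72% of all genes were called and 3.97% were lower. The 10 held places 96 to 281 from the lowest of 10597 genes, and places 3 to 53 among the 6262 genes with at least 20 CPM in HSC-derived microglia. The 5 lowest genes outside the list were Rnase2a and Gm11964, both at 0 in the leptomeningeal libraries, Cmtm8, Soga1 and Gm48700. These values rest on few counts: Cdk5r1 had 1 count over both leptomeningeal libraries against 97 in the microglia, a ratio of counts per scaled library of 0.0273 (95% exact interval 0.000684 to 0.156). Npnt had 3 against 121 counts (0.0656, interval 0.0133 to 0.196) and Cd34 3 against 98 (0.081, interval 0.0164 to 0.244). Intervals and floors cover counting error only. Sparc, with 91 against 2815 counts, gave a ratio of 0.0855 (interval 0.0686 to 0.105). Without leptomeningeal replicate 1 only the shallow replicate 2 is left, in which 5 of the 10 genes had 0 counts, so that their fitted values, between -8.72 and -10.28, depend on the prior count and are no bound. Without it the value was -4.05 for Sparc, -2.77 for Cd34 and -2.16 for Serpine2, against -3.47, -3.53 and -3.18 with both libraries.

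Sparc was at 428.6, 150.4, 191.3 and 208.0 CPM in monocyte-derived and at 137.4 and 84.7 CPM in HSC-derived leptomeningeal macrophages. Serpine2 was at 73.8, 37.3, 26.1 and 28.3 CPM in monocyte-derived and at 17.2 and 53.9 CPM in HSC-derived leptomeningeal macrophages. Adgrg1 was at 73.8, 19.8, 19.8 and 22.2 CPM in monocyte-derived and at 25.8 and 38.5 CPM in HSC-derived leptomeningeal macrophages. In all 3 genes monocyte-derived replicate 1 was the highest of the 6 libraries. The less abundant Npnt was at 18.3, 0, 4.46 and 7.40 CPM in monocyte-derived and at 5.15 and 0 CPM in HSC-derived leptomeningeal macrophages, and Sox4 at 22.5, 6.59, 2.55 and 2.69 CPM and at 6.87 and 0 CPM. Cdk5r1 ran between 5.74 and 16.2 CPM, Cd34 between 5.38 and 13.3 CPM, Capn3 between 6.38 and 45.7 CPM and Whrn between 13.2 and 34.4 CPM in the monocyte-derived group. In HSC-derived replicate 2, the shallowest library, Npnt, Sox4, Cdk5r1, Tmem52 and Whrn had 0 counts, which allows up to 23.1 CPM, and Npnt had 0 counts in monocyte-derived replicate 2, which allows up to 3.29 CPM.

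Monocyte-derived leptomeningeal replicate 1 stood apart in most of the 10 genes. It was above each of the other 3 monocyte-derived leptomeningeal libraries in 9 of the 10 genes, by 1.77 times their mean for Cd34 to 5.7 times for Sox4, the exception being Tmem52 at 0.947 times. Of 9 defining microglia genes 8 were also higher in it than in each of the other 3, P2ry12 at 626.0 CPM against 264.7 to 284.0 CPM, while Fcrls was not. How many of all tested genes were highest in replicate 1 was not counted, so neither count has a background to be read against. The neutrophil marker sum of replicate 1 was the lowest of the 4, 1222 CPM against 2202 to 2874 CPM. As a share of the monocyte-derived microglia mean, the genes stood at 9.61% (Tmem52) to 42.7% (Capn3) in replicate 1, against 5.82% (Npnt) to 15.3% (Whrn) in the mean of the other 3. Without replicate 1 the log2 difference from microglia was -4.21 for Sox4, -3.32 for Adgrg1 and -3.66 for Capn3, against -2.97, -2.58 and -2.55 with it. The part of microglial RNA in this library's values was not tested.

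**Figure D3:**
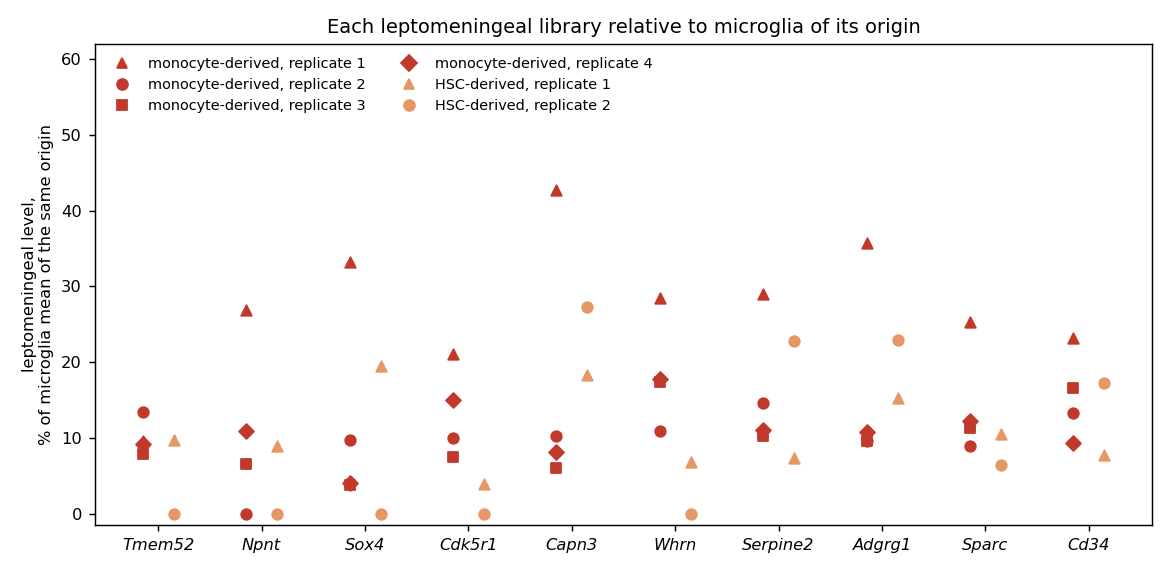
Level of each gene in each leptomeningeal library as a percentage of the mean of microglia of the same origin, with 1 symbol per replicate. Monocyte-derived replicate 1 (red triangles) lies above the other 3 monocyte-derived libraries for 9 genes, up to 42.7% for Capn3, and for Tmem52 it lies among them at 9.61%.

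Between monocyte-derived and HSC-derived microglia 0 of 10 genes were called by edgeR, against 1.89% of all genes (0.123% higher, 1.76% lower), and 0 by DESeq2; 1 of 10 genes, Cdk5r1, had an unadjusted p under 0.05, against 1639 of all 10597. The 10 log2 changes ran between 0.12 and 0.65, with a median of 0.21 beside 0.02 over all genes, and those of Npnt and Cd34 reached -0.04 and -0.03 under alternatives; the 95% intervals lay between -0.54 (Capn3) and 1.51 (Sox4). Cdk5r1 was higher in all 4 monocyte-derived libraries than in any HSC-derived one, with a log2 change of 0.63 (95% interval 0.17 to 1.08, unadjusted p = 0.00817, edgeR adjusted p = 0.139). For 9 of the 10 genes the lowest of these 8 libraries was HSC-derived replicate 3 or 4, the shallow ones with more RNA of other cells, whose part in this was not tested. The same share over all tested genes was not counted, so this is not read as a trait of the 10. Between the origins in the leptomeninges 0 of 10 were called by edgeR, against 0.302% of all genes (0.16% higher, 0.142% lower), and 0 by DESeq2; 3 of 10 genes, Sparc, Cdk5r1 and Whrn, had an unadjusted p under 0.05, against 1159 of all 10597. Cdk5r1 had 56 counts over 4 monocyte-derived libraries (5.74 to 16.2 CPM) against 1 count over both HSC-derived ones (1.72 and 0 CPM; edgeR adjusted p = 0.331). The 10 log2 changes in the leptomeninges ran between 0.09 and 2.80, with a median of 0.82 beside 0.07 over all genes. Sparc was 2.05-fold higher in the monocyte-derived group (log2 change 1.04, 0.423 to 1.625 over its alternatives, edgeR adjusted p = 0.3). Whrn was 4.1-fold higher (log2 change 2.03, edgeR adjusted p = 0.2). The measured values of neither Sparc nor Whrn overlapped between groups, with only 2 HSC-derived libraries. Whrn, however, had 4 and 0 counts in these libraries. The 0 of Whrn and of Cdk5r1 in replicate 2 allows up to 23.1 CPM. That lies within the monocyte-derived range of Whrn (13.2 to 34.4 CPM) and above that of Cdk5r1, so the counts do not settle either gap.

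The genes also differed in what they resembled over the 18 libraries. Pearson correlations of log2 CPM are given as a description across libraries that share scaling and group structure. The purinergic receptor gene P2ry12, a defining gene of homeostatic microglia, was the gene most like Sparc (r = 0.99) and Adgrg1 (0.989), and it came close behind Cxxc5 (0.979) for Cd34 (0.978). Among the genes most like Serpine2 was Usp2 (0.976). P2ry12 averaged 362.5 CPM and 280.0 CPM in monocyte-derived and HSC-derived leptomeningeal macrophages, 1575 CPM and 1245 CPM in microglia of these origins and 4688 CPM in host microglia. Tmem52 was most like Slc38a6, an amino acid transporter family gene (0.962; 71.9 and 41.6 CPM in the leptomeninges, 263.2 and 210.4 CPM in donor-derived microglia, 54.7 CPM in host microglia). Npnt was most like the iron exporter gene Slc40a1 (0.942), Sox4 like Epb41l3 (0.94), Capn3 like F11r (0.945), Whrn like Gm2629 (0.977) and Cdk5r1 like Gpr155 (0.971), then the TGF-beta receptor gene Tgfbr1 (0.967). Between members the lowest r was 0.343, for Cd34 and Tmem52, and the highest 0.977, for Sparc and Cd34.

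Other genes of the members' pathways were counted from lists that leave the 10 out. Their counts against host microglia are to be read beside the shares over all tested genes, and some lie near them. These shares were 15.1% higher and 15.1% lower in monocyte-derived microglia, and 16.3% higher and 13.1% lower in HSC-derived microglia. Of 30 homeostatic microglia genes, 24 were lower and 1 higher in monocyte-derived than in host microglia, and 24 lower and 1 higher in HSC-derived microglia. Sall1, a transcription factor of microglial identity, averaged 31.4 ± 8.59 CPM in monocyte-derived and 19.8 ± 12.9 CPM in HSC-derived microglia, against 325.7 ± 10.7 CPM in host microglia (SD, n = 4 each). Upk1b, Sall3 and Jam2 were lower as well (log2 changes -4.41, -3.87 and -3.50 in monocyte-derived microglia). The border macrophage list went the other way, with 25 and 24 of 28 higher and 0 lower, and included Ms4a7 at 780.2 ± 30.5 CPM in monocyte-derived microglia, against 6.05 ± 4.41 CPM in host microglia. The mannose receptor gene Mrc1 was at 597.0 ± 29.2 CPM, in monocyte-derived microglia, against 26.6 ± 2.11 CPM in host microglia. Cp and Pf4 were also higher, with log2 changes of 4.66 and 6.32.

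Among 14 tested genes for secreted matrix proteins and their receptors, 3 were higher and 5 lower in monocyte-derived than in host microglia, and 3 higher and 6 lower in HSC-derived microglia. Itga4, the integrin alpha 4 subunit, was at 93.7 ± 7.29 CPM in monocyte-derived microglia, against 1.63 ± 0.821 CPM in host microglia, and Egfl7 was higher too (log2 change 4.26). The basement membrane gene Nid2 and the integrin beta 3 gene Itgb3 were lower (-3.72 and -2.41). Of 12 serpins, their proteases and receptors, 4 were higher and 2 lower in monocyte-derived microglia, and 2 higher and 1 lower in HSC-derived microglia. Serpinb8 was at 20.6 ± 4.73 CPM in monocyte-derived microglia, against 0 counts in all 4 host libraries. The scavenging receptor gene Lrp1 was lower (log2 change -0.54), the urokinase gene Plau higher (1.02) and the syndecan gene Sdc3 higher (0.48).

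Of 22 SoxC and TGF-beta signalling genes, 6 were higher and 4 lower in monocyte-derived than in host microglia, and 4 higher and 6 lower in HSC-derived microglia. Tgfbi, a secreted TGF-beta target, was at 389.8 ± 27.4 CPM in monocyte-derived microglia, against 66.8 ± 4.44 CPM in host microglia, and the type I receptor gene Acvrl1 and the feedback gene Pmepa1 were higher (log2 changes 1.41 and 0.97). The co-receptor gene Eng was lower (-2.25). Of 16 adhesion G protein-coupled receptors and Adgrg1 partners, 5 were higher and 8 lower in monocyte-derived, and 4 higher and 7 lower in HSC-derived microglia. The tetraspanin genes Cd9 and Cd81, whose products bind Adgrg1, were lower in monocyte-derived microglia (log2 changes -2.28 and -1.19), whereas Adgre1, which encodes F4/80, and Adgre5 were higher (1.40 and 4.03).

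Of 18 Cdk5 pathway genes, 3 were higher and 5 lower in monocyte-derived than in host microglia, and 2 higher and 5 lower in HSC-derived microglia. Cables1, Ppp1r1b and Cdk5rap3 were lower in monocyte-derived microglia (log2 changes -1.23, -4.15 and -0.94). Among 8 calpains and calpastatin, 4 were higher and 1 lower in each donor group: Capn1, Capn2, Capn7 and the inhibitor gene Cast had log2 changes of 1.27, 1.40, 0.88 and 1.07 in monocyte-derived microglia, while Capn3 did not pass. Of 7 whirlin complex and stereocilia genes, 2 were higher (Mpp1 and Eps8, 1.99 and 2.04) and 2 lower (Cdh23 and Myo7a, -2.62 and -0.49) in monocyte-derived microglia, and 3 higher and 2 lower in HSC-derived microglia. Of 6 tested genes of the CD34 family and blood progenitors, 2 were higher (Cd48 and Flt3, 1.40 and 4.77) and 1 lower (Procr, -0.96) in monocyte-derived microglia, and 2 higher and 0 lower in HSC-derived microglia. Of the list genes called in these comparisons 0 changed direction with RLE scaling or with DESeq2.

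Between sites the same lists split. In monocyte-derived leptomeningeal macrophages against monocyte-derived microglia, 28 of 30 homeostatic microglia genes were lower and 0 higher, and 18 of 28 border macrophage genes were higher and 4 lower. Matrix genes gave 6 higher and 4 lower of 14, serpin genes 6 and 1 of 12, SoxC and TGF-beta genes 5 and 8 of 22, adhesion receptors 3 and 4 of 16, Cdk5 genes 4 and 2 of 18, calpains 3 and 3 of 8, whirlin complex genes 1 and 1 of 7, and progenitor genes 3 and 0 of 6. In HSC-derived leptomeningeal macrophages against HSC-derived microglia, 22 of 30 homeostatic genes were lower and 0 higher, and 19 of 28 border macrophage genes were higher and 2 lower. Over all tested genes 16.3% were lower and 19% higher in the monocyte-derived comparison, and 3.97% lower and 5.75% higher in the HSC-derived one. The lists hold between 6 and 30 tested genes, so their counts are to be read beside these shares and not against each other.

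**Figure D4:**
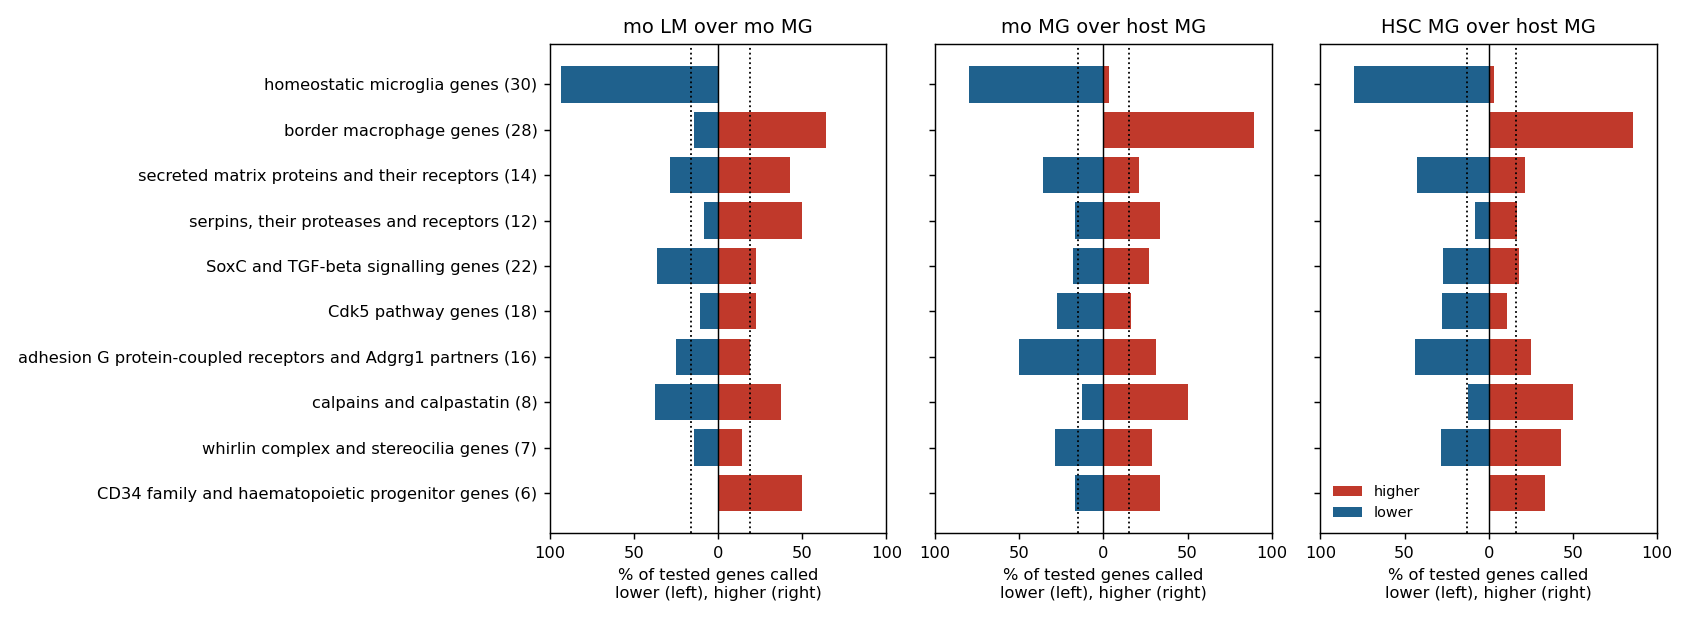
Percentage of each list's tested genes (number in parentheses) called lower, to the left, or higher, to the right, at an adjusted p under 0.05, in monocyte-derived leptomeningeal macrophages over monocyte-derived microglia and in donor-derived over host microglia; dotted lines mark the share over all tested genes. Homeostatic microglia genes reach 28 of 30 lower in the leptomeninges and 24 of 30 lower in each donor group against host, and the smaller lists hold genes on both sides in most panels.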

How the data were processed

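The deposited table, per its column names and whole values, holds counts of unique molecules per gene for MARS-seq libraries; per the submitters' processing notes the build was mm10. No source used here gives the aligner, the counter or its strand setting. Of its count columns 18 matched a labelled sample and 2 did not and were not used. Genes passing filterByExpr (10597 of 13043) were fitted in edgeR 4.0.16 (R 4.3.3) with TMM factors and a robust quasi-likelihood model over all 18 libraries (common biological coefficient of variation 0.161). Changes were called at a Benjamini-Hochberg adjusted p under 0.05 over all tested genes. CPM uses TMM-scaled totals. The fit was tested on simulated data. DESeq2 1.42.0, RLE factors, no filter, fits of the compared groups alone, a replicate block and left-out libraries were alternatives. Of 32 same-numbered pairs across groups 1 had deviations correlated over 0.1 (range -0.321 to 0.323). Both extremes involve the HSC-derived leptomeningeal group, whose 2 libraries deviate as mirror images and so cannot inform on pairing. The check gave no clear sign of pairing by replicate number but cannot exclude it, and the main fit used no replicate block. No 2 libraries agreed within sampling noise. The 10 genes and all lists were chosen with earlier results of these data known. Named list genes are, by rule, the up to 4 with the smallest p in monocyte-derived against host microglia, and up to 3 most-correlated genes per member were considered. Of the genes this rule names, 2 are not reported here.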

Additional observations from a re-analysis of the deposited data

Results flagged for a closer look

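In 6 of 40 sets of 4 libraries (10 genes in 4 groups) the gap of 1 library to its nearest neighbour passed Dixon's 95% critical value for 4 samples, a limit that chance passes in about 1 of 20 sets. Of the 6, 2 fell in monocyte-derived leptomeningeal replicate 1: Adgrg1 at 73.8 CPM (gap 0.955 of the range) and Capn3 at 45.7 CPM (0.883). Capn3 was also low, 39.1 CPM, in the shallow HSC-derived microglia replicate 4 (0.926). Npnt was at 81.4 CPM in monocyte-derived microglia replicate 4 (0.84). In host microglia, Cd34 was at 209 CPM in replicate 4 (0.838) and Serpine2 at 482 CPM in replicate 2 (0.912).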

How the results depend on the processing

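The count of called genes among the 10 stayed at 7 and 7 against host microglia and at 0 and 0 between origins with DESeq2, RLE scaling, no filter, the compared groups alone and the replicate block; against host, HSC-derived microglia gave 6 without the 3 shallow libraries and 8 (3 higher, 5 lower) without these and monocyte-derived leptomeningeal replicate 1, a setting chosen after seeing the data. Leaving out 1 library at a time gave 7 to 7 in monocyte-derived and 6 to 7 in HSC-derived against host microglia, and 0 to 0 between origins in microglia and 0 to 0 in the leptomeninges. Over all genes, counts moved more. Monocyte-derived against HSC-derived microglia had 200 calls, but 552 with DESeq2, 20 in the compared groups alone, 50 without the 3 shallow libraries, 91 without these and monocyte-derived leptomeningeal replicate 1, and 31 to 555 with 1 library left out, over 1.5 times more or fewer for each of the 8 libraries. Monocyte-derived against HSC-derived leptomeningeal macrophages had 32 calls, but 70, 16, 72 and 195 under the same 4 settings and 12 to 90 with 1 left out, over 1.5 times more or fewer without monocyte-derived replicate 1 or 3 or either HSC-derived library. HSC-derived against host microglia had 3114 calls, 2068 in the compared groups alone and 2612 to 2902 with 1 left out, and monocyte-derived against host 3201, with 2587 to 2864. The replicate block gave 2998, 2951, 238 and 43 calls over all genes against host in monocyte-derived and HSC-derived microglia and between origins in microglia and leptomeninges. Of the 10 genes' log2 changes in the tested comparisons 2 lost and 1 gained a call under 1 setting each. Of the changes with a call 0 reversed. Changes without a call did change sign in some settings. Against host microglia these were Cdk5r1 in monocyte-derived (range -0.167 to 0.0063) and Whrn in HSC-derived microglia (-0.127 to 0.156). Between origins in the leptomeninges they were Npnt (-0.193 to 6.34), Sox4 (-0.941 to 6.41), Serpine2 (-0.290 to 1.26), Adgrg1 (-0.461 to 0.471) and Capn3 (-1.01 to 0.413). Between origins in microglia they were Npnt and Cd34. The cause of these shifts was not tested. In the leptomeninges, the difference from microglia moved by over 1 SD in 4 gene and setting combinations, and in 11 with 1 library left out. Depth limits the HSC-derived leptomeningeal values most, where 1 library is left when replicate 1 is omitted and is assumed to vary like the other groups.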
